A study of Mus musculus with 6 samples.

Results

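The unfolded protein response and the integrated stress response were followed through 40 genes in mouse induced pluripotent stem cells (iPSCs) kept under intermittent compressive force (ICF) or without load. The 40 genes were taken by pathway, with no measured value in the rule, but with earlier results of these data known. Each was found by its Ensembl identifier among 50686 identifiers counted, of which 16729 had enough reads to be tested. All 40 genes were among those tested. They comprised 7 regulators with Atf4 among them, 12 genes of amino acid synthesis and transport that Atf4 is known to drive, 4 genes for sensing stress in the endoplasmic reticulum (ER), 14 ER chaperones and folding enzymes, and 3 genes of ER-associated degradation. The 4 sensing genes are the sensors Ern1, Atf6 and Eif2ak3 with the transcription factor Xbp1, and are called the sensor group. The 12 amino acid genes are called the Atf4 amino acid arm, and the 14 chaperone and 3 degradation genes together the ER chaperone arm.

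The iPSCs had been derived from mouse gingival fibroblasts, grown into embryoid bodies, exposed to retinoic acid and plated on gelatin-coated dishes. All 6 samples share that history, so the controls also carry the retinoic acid treatment. The 3 ICF samples, titled Intermittent donor 1 to 3, were loaded with 1.5 g per square cm at 0.23 Hz for 24 h in serum-free medium. The 3 controls, titled Control-Intermittent donor 1 to 3, were cultured likewise for 24 h without load. The study describes 1 iPSC line and 3 independent experiments, while the titles speak of donors, so the p-values measure the spread between experiments on 1 line and not between animals.

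The ER folds proteins bound for secretion or membranes. When unfolded proteins accumulate there, the sensors Ern1, Atf6 and Eif2ak3 signal, and Xbp1, Atf6 and their partners raise transcription of chaperones and of genes that clear misfolded proteins. Eif2ak3 is also a kinase of the translation factor eIF2α, as are kinases that sense amino acid shortage, heme deficiency or viral RNA, and phosphorylated eIF2α favours translation of Atf4, which switches on genes of amino acid supply and one-carbon metabolism. This shared branch is the integrated stress response. Much of Atf4's control lies in translation and protein stability, which counts of RNA do not measure.

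The libraries held 28711166 to 34194413 reads counted on genes. ICF replicate 3 stood apart. Of its counts above 0, 89.0% could be divided by 4, whereas 20.3% to 21.5% could in the other 5 libraries, and it had 20802 genes with a count against 24340 to 24889. Results are therefore also given without it. How many of the 28869790 reads on genes of ICF replicate 3 were independent was not tested, so its depth is uncertain. In CPM (read counts scaled to a common library size), the 7 pluripotency markers summed to 2684 to 3068 in controls and 2633 to 2846 with ICF. Of the mesenchymal markers, 2 of 8, Col1a1 and Col3a1, were called higher with ICF (edgeR), against 3.47% of all genes. With each of the 6 libraries left out in turn, Col1a1 kept its call in 3 of 6 fits and Col3a1 in 0 of 6 (edgeR, adjusted p up to 0.084 for Col1a1 and from 0.067 to 0.15 for Col3a1). All 8 had log2 fold changes above 0, where 49.6% of all genes were below 0. In 5 of the 8 every ICF sample was above every control, as in 15.6% of all genes. The 8 mesenchymal markers summed to 368 to 425 CPM in controls and 442 to 455 CPM with ICF, and none of the 8 was below 1 CPM in every sample. The 7 endoderm markers summed to 264 to 282 CPM and 246 to 284 CPM, with Sox17 called lower (edgeR, adjusted p = 0.045), and the 4 neuroectoderm markers to 112 to 121 CPM and 106 to 115 CPM. The part of these cell types in the results below was not tested, and in bulk RNA fewer cells of a type and less RNA per cell cannot be told apart.

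Values below are CPM after TMM normalization, each group's samples being given in the order of the numbers in their titles. Log2 fold changes (ICF over control) come from edgeR's quasi-likelihood test across all 16729 genes, and its p-values were adjusted by Benjamini-Hochberg and called under 0.05. Standard errors (SE) come from the spread of log2 CPM over the 3 samples of each group. A second fit kept the sample number as a block, and its adjusted p is given where it changes a call. The block rests on the numbers in the titles. Deviations from the group means set replicate 3 apart (0.50 between its 2 samples) but did not pair the others by number. Control 1 correlated at 0.38 with ICF 2 and 0.23 with ICF 1, and control 2 at 0.26 with both.

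Of the 40 genes, 8 changed with ICF, where 7.85% of all genes tested did. The 2 that rose were Atf5 and Calr (3.47% of all genes rose), and the 6 that fell were Chac1, Shmt2, Mthfd2, Aldh18a1, Ero1l and Herpud1 (4.38% of all genes fell). The median log2 fold change of the 40 was -0.10, against 0.003 over all genes, and 25 of the 40 had a value below 0. With the block, 5 rose and 17 fell, against a background of 29.9% of all genes called. DESeq2 called 3 higher and 9 lower, against 5.64% and 6.63% of all genes. Only 4 of the 8 calls (Atf5, Chac1, Shmt2 and Ero1l) remained without control replicate 1, control replicate 2 or ICF replicate 1, and these 4 remained whichever library was left out. Without ICF replicate 3, 6 of the 8 remained, those of Aldh18a1 and Herpud1 being lost, and without replicate 3 of both groups all 8 remained among 7 that rose and 18 that fell, against 30.1% of all genes called.

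**Figure D1:**
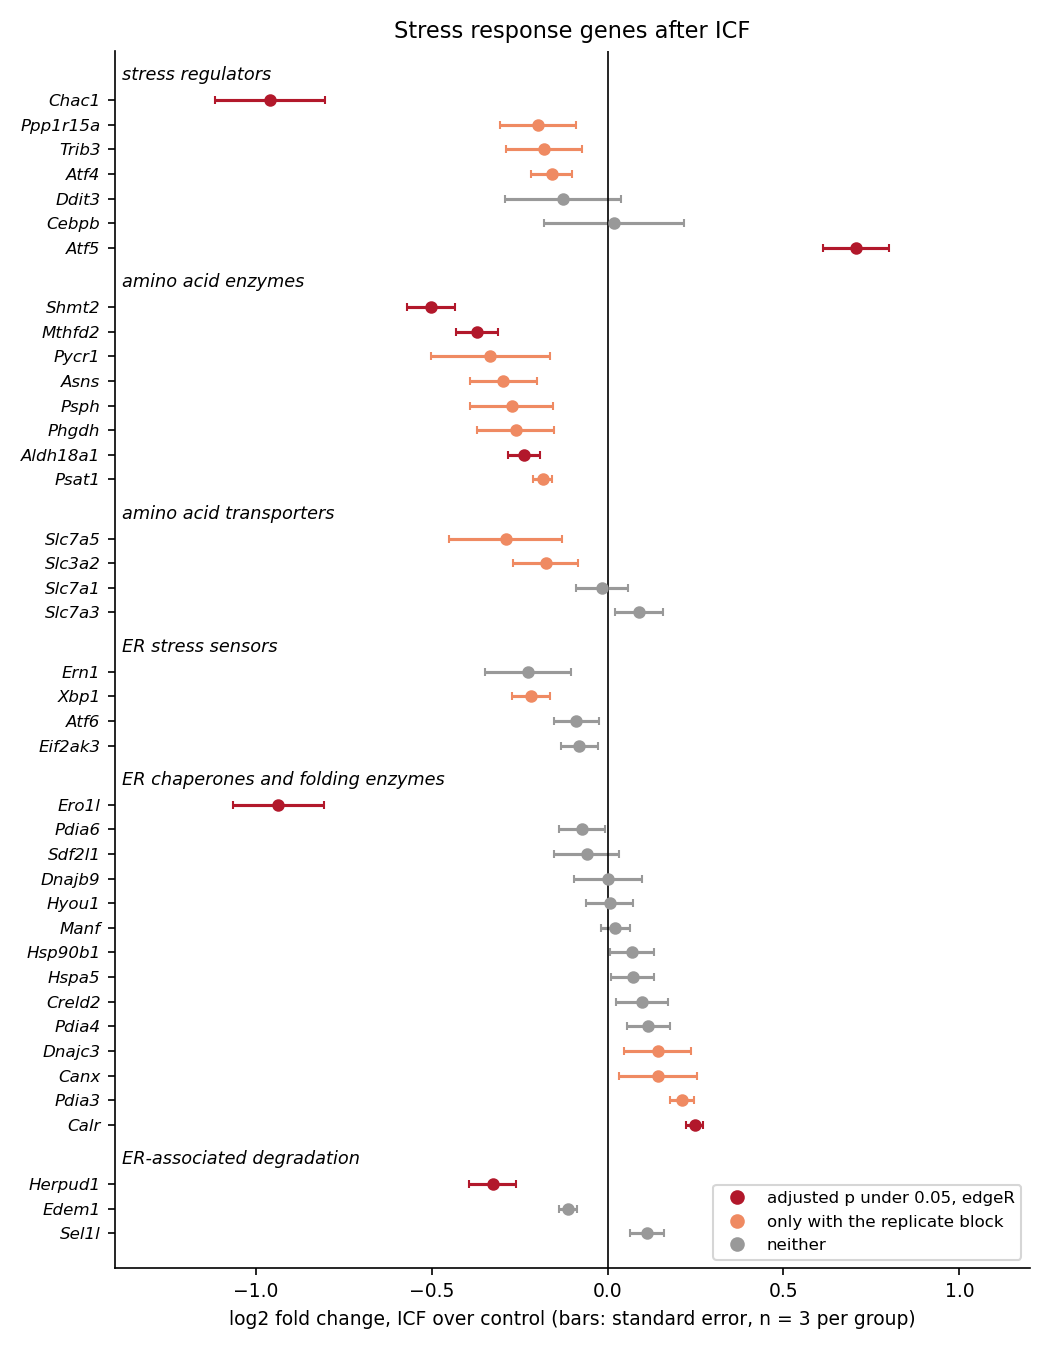
Log2 fold change (ICF over control, x axis) of each of the 40 genes, in rows grouped by role, with bars of 1 SE from the spread over 3 samples per group. Dark red points passed edgeR's quasi-likelihood test, orange points passed it only with the replicate block, and grey points passed neither. The amino acid enzymes all lie left of 0, between -0.50 and -0.18, while most chaperones lie close to 0 and Ero1l and Chac1 stand farthest to the left.

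Among the regulators, the RNA of Atf4 itself, the transcription factor at the centre of the response, had lower values with ICF without passing the test. Atf4 (ENSMUSG00000042406, chr15:80255184-80257541, forward strand in GRCm38) was at 417, 411 and 376 CPM in controls and 357, 376 and 345 CPM with ICF. The ICF samples were below the controls, but the lowest control and the highest ICF sample were nearly equal. The difference of -0.16 (SE 0.059) did not pass the test (edgeR, adjusted p = 0.16), and it passed with the block (edgeR, adjusted p = 0.012).

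Atf5 and Chac1, both known targets of this pathway, moved in opposite directions. Atf5 (ENSMUSG00000038539, chr7:44812256-44816658, reverse strand), a relative of Atf4 whose translation is also favoured under stress, was at 64.4, 63.0 and 61.4 CPM in controls and 99.2, 116 and 92.9 CPM with ICF. The groups were far apart, and the rise of 63.1% (log2 fold change 0.71, SE 0.095, edgeR, adjusted p = 0.0024) kept its call with each of the 6 libraries left out in turn. Chac1 (ENSMUSG00000027313, chr2:119351229-119354381, forward strand), an enzyme that degrades glutathione, was at 56.5, 56.0 and 42.8 CPM in controls and 26.1, 29.7 and 24.0 CPM with ICF. The lowest control lay well above the highest ICF sample. Chac1 RNA fell by 0.96 on the log2 scale (SE 0.16, edgeR, adjusted p = 0.0032), which made its level 48.6% lower, and this call was also kept with each library left out.

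The other 4 regulators did not pass the test (edgeR, also 0 of 4 in unadjusted p and 0 by DESeq2), and 2 passed with the block, both lower. With the block 15.3% of all genes were called lower. Trib3, a pseudokinase that feeds back on Atf4, was at 58.1, 54.9 and 47.9 CPM in controls and 45.1, 52.0 and 44.9 CPM with ICF, so the groups overlapped (log2 fold change -0.18, SE 0.11, edgeR, adjusted p = 0.27, with the block 0.031). Ppp1r15a, the subunit that directs a phosphatase to eIF2α and so ends the response, was at 43.5, 43.3 and 36.5 CPM in controls and 37.1, 37.9 and 32.5 CPM with ICF. Its groups overlapped as well, through the lowest control (log2 fold change -0.20, SE 0.11, edgeR, adjusted p = 0.24, with the block 0.019). Ddit3 (CHOP), the factor linked to cell death under lasting ER stress, was low throughout, at 15.0, 15.7 and 10.9 CPM in controls and 13.3, 12.9 and 11.9 CPM with ICF. The ICF samples of Ddit3 lay inside the range of the controls, and its log2 fold change of -0.13 (SE 0.17) passed neither fit (edgeR, adjusted p = 0.62, with the block 0.37). Without replicate 3 of both groups it was -0.23 and passed narrowly (edgeR, adjusted p = 0.049). Cebpb, a partner factor, had a log2 fold change of 0.018 (edgeR, adjusted p = 0.96), and 16.7% of the 75-base stretches of its transcript also occur in another gene on the opposite strand.

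**Figure D2:**
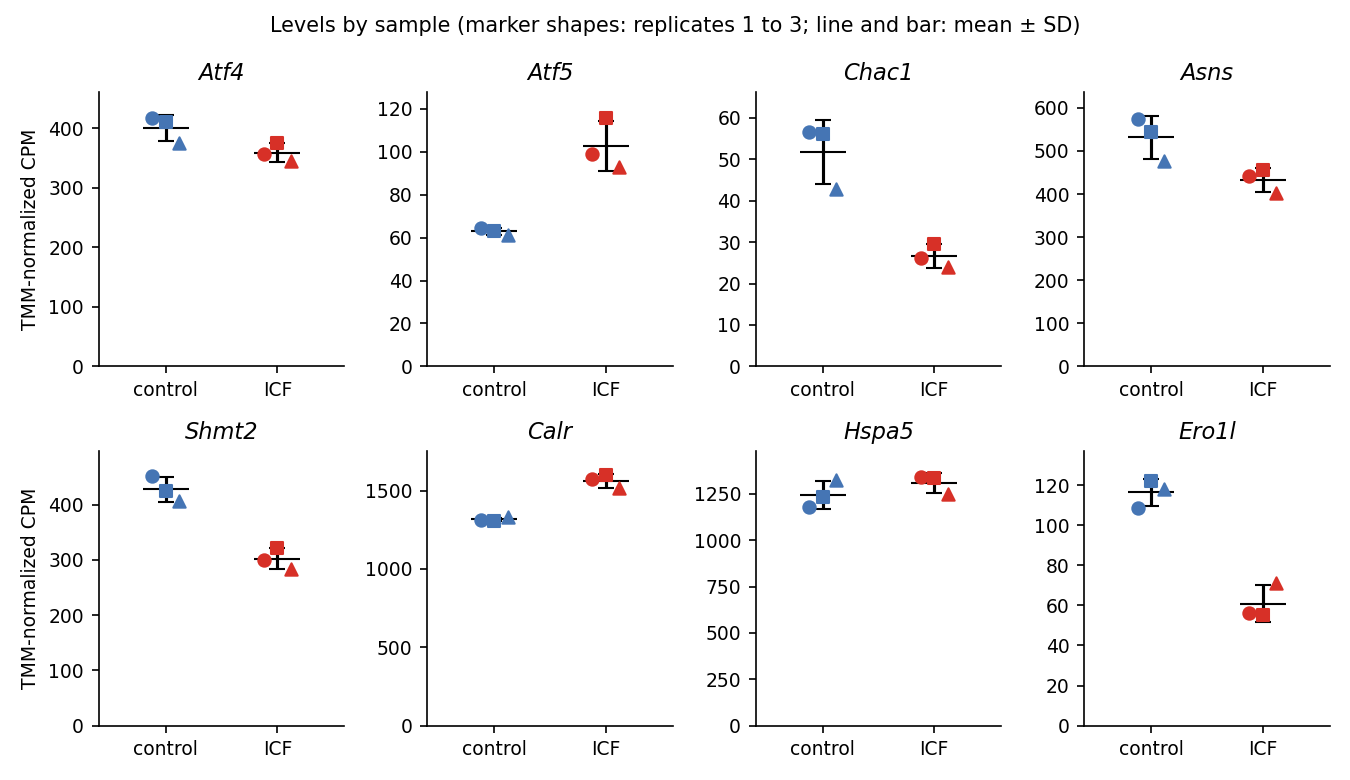
CPM per sample (y axis, from 0) for Atf4, Atf5, Chac1, Asns, Shmt2, Calr, Hspa5 and Ero1l, with a point per sample, shaped by replicate, and a line and bar at the mean ± SD of each group of 3. Points of the groups overlap for Hspa5 and nearly touch for Atf4, and all ICF points are above all control points for Atf5 and Calr.

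In the Atf4 amino acid arm, 3 of the 12 genes fell (edgeR), and 11 of the 12 had a log2 fold change below 0 (49.6% of all genes did). None was called higher by edgeR or DESeq2, and 0 were higher at an unadjusted p under 0.05. In 7 of the 12, every ICF sample was below every control sample, which held for 15.7% of all genes tested, while the groups overlapped in the other 5. In all 3 same-numbered pairs, 10 of the 12 were lower, as were 28.3% of all genes. The levels spanned 14.8 to 194 CPM per kilobase of exon in controls. The median log2 fold change was -0.27, and it was -0.17 without ICF replicate 3. With the block 10 of the 12 fell, against a background of 15.3% of all genes called lower.

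Shmt2, Mthfd2 and Aldh18a1 fell, and all work in mitochondria. Shmt2 (ENSMUSG00000025403, chr10:127517123-127522444, reverse strand), which turns serine into glycine and a folate-bound one-carbon unit, was at 451, 424 and 407 CPM in controls and 300.3, 322 and 284 CPM with ICF. The lowest control was above the highest ICF sample by more than the range of either group, and the fall of 0.50 on the log2 scale (SE 0.068, edgeR, adjusted p = 0.0043), or 29.4%, kept its call with each library left out. Mthfd2 (ENSMUSG00000005667, chr6:83305691-83325908, reverse strand), the next enzyme of mitochondrial one-carbon metabolism, was at 223, 236 and 218 CPM in controls and 175, 185 and 164 CPM with ICF. The groups did not overlap, and the level was 22.7% lower (log2 fold change -0.37, SE 0.060, edgeR, adjusted p = 0.012). With a library left out, its adjusted p missed the threshold without control replicate 1, control replicate 2 or ICF replicate 1, ranging from 0.015 to 0.084 (edgeR).

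Aldh18a1 (ENSMUSG00000025007, chr19:40550257-40588463, reverse strand), which makes the precursor of proline from glutamate, was at 193, 196 and 197 CPM in controls and 166, 174 and 157 CPM with ICF. The controls lay close together and above all ICF samples. The fall was small, 15.1% (log2 fold change -0.24, SE 0.045, edgeR, adjusted p = 0.045), and missed the threshold whichever of the 6 libraries was left out (edgeR, adjusted p from 0.064 to 0.18). Pycr1, which completes proline synthesis, was at 98.2, 103 and 83.0 CPM in controls and 83.3, 80.8 and 61.2 CPM with ICF. Its groups overlapped narrowly, and the difference of -0.33 (SE 0.17) did not pass (edgeR, adjusted p = 0.13), but did with the block (edgeR, adjusted p = 1e-05) and without replicate 3 of both groups (edgeR, adjusted p = 0.0003). Without ICF replicate 3 alone the difference was -0.20 and did not pass (edgeR, adjusted p = 0.21).

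The serine enzymes and asparagine synthetase were lower in every ICF sample than in every control, as were 15.7% of all genes. None of these 4 genes passed edgeR without the block (2 of the 4, Asns and Psat1, passed by DESeq2). All 4 passed with the block and without replicate 3 of both groups. Of all genes, 15.3% were called lower with the block, 15.6% without replicate 3 of both groups and 6.63% by DESeq2. Asns (ENSMUSG00000029752, chr6:7675169-7693254, reverse strand), which makes asparagine, was the most highly expressed gene of the arm per length, at 194 CPM per kilobase of exon in controls and 158 with ICF. Its CPM were 573, 544 and 477 in controls and 441, 455 and 402 with ICF, with no overlap. The log2 fold change was -0.30 (SE 0.095, edgeR, adjusted p = 0.062, with the block 1.7e-05, without control replicate 3 0.02). That was the only 1 of the 6 fits with a library left out that passed (edgeR, adjusted p up to 0.22). Without ICF replicate 3 the log2 fold change was -0.24 (edgeR, adjusted p = 0.11).

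Phgdh, Psat1 and Psph catalyse the successive steps of serine synthesis. Psat1 was at 532, 534 and 527 CPM in controls and 477, 474 and 450.3 CPM with ICF, with a gap between the groups wider than the control range (log2 fold change -0.18, SE 0.027, edgeR, adjusted p = 0.073, with the block 0.0033). Psph was at 105, 100.4 and 91.7 CPM in controls and 86.8, 88.4 and 70.8 CPM with ICF, and the groups were separated by a few CPM (log2 fold change -0.27, SE 0.12, edgeR, adjusted p = 0.11, with the block 0.00016). Phgdh was at 206, 193 and 179 CPM in controls and 162, 178 and 142 CPM with ICF, again just separated (log2 fold change -0.26, SE 0.11, edgeR, adjusted p = 0.11, with the block 0.00019). Without ICF replicate 3, Psph and Phgdh were both at -0.17 (edgeR, adjusted p = 0.17 and 0.19). The Phgdh value is uncertain, because 47.4% of the 75-base stretches of its transcript also occur in transcripts of other genes, mainly Gm7901. In all, the 8 enzymes were lower in each of the 3 same-numbered pairs, as were 28.3% of all genes. All 8 passed with the block, where 15.3% of all genes were called lower.

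None of the 4 transporters passed the test without the block (edgeR, with 1 under 0.05 in unadjusted p and 0 called by DESeq2). Slc7a5 and Slc3a2 form the large neutral amino acid exchanger. Slc7a5 was at 493, 474 and 392 CPM in controls and 392, 409 and 311 CPM with ICF, where the lowest control and the highest ICF samples overlapped (log2 fold change -0.29, SE 0.16, edgeR, adjusted p = 0.16, with the block 1.7e-05). Without ICF replicate 3 its log2 fold change was -0.17 (edgeR, adjusted p = 0.29). Slc3a2 was at 459, 430.1 and 386 CPM in controls and 382, 398 and 348 CPM with ICF, also overlapping (log2 fold change -0.18, SE 0.093, edgeR, adjusted p = 0.21, with the block 0.0066). The cationic amino acid carriers Slc7a1 and Slc7a3 had log2 fold changes of -0.016 and 0.089, and neither passed either fit.

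Atf4 binds composite sites in promoters of such genes, whose core is often written TGATGNAA. That core was searched on both strands of RefSeq promoter windows, 250 bases before to 50 after each start, on GRCm38.p6. It occurred in 3.97% of 32851 windows and in those of 5 of the 35 genes with a window, Asns, Pycr1, Chac1, Trib3 and Herpud1. Slc7a5, Slc7a3, Atf6, Hyou1 and Manf were not matched. Sites are printed for Chac1, which fell, and for Asns and Pycr1, which passed with the block, with the core in capitals (for Chac1, TTGCATCA, its reverse complement) and each read along the gene's own strand. They lie at chr6:7693214-7693243 (reverse strand, just inside the GENCODE span of Asns), chr11:120643824-120643871 (reverse strand) and chr2:119351029-119351076 (forward strand).
Asns: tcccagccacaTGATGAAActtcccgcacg
Pycr1: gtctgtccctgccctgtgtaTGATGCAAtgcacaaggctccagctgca
Chac1: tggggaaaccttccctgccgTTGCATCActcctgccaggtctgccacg
The 5 genes with the core had log2 fold changes from -0.96 to -0.18, with 2 called lower by edgeR and all 5 with the block. The shares of all genes called lower were 4.38% and 15.3%. A match is a description and not a bound site, and 8 of the 10 genes of the amino acid arm with a window had no match in it.

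All 4 genes of the sensor group had log2 fold changes below 0, with a median of -0.15 (-0.091 without control replicate 3), and none passed edgeR. Xbp1 alone was under 0.05 in unadjusted p, and it was the 1 that DESeq2 and the block called. These fits called 6.63% and 15.3% of all genes lower. Xbp1, whose spliced RNA encodes an activator of chaperone genes, was at 179.9, 172 and 193 CPM in controls and 153, 154 and 161 CPM with ICF. All ICF samples were below all controls (log2 fold change -0.22, SE 0.054, edgeR, adjusted p = 0.069, with the block 0.001). Gene counts do not separate spliced from unspliced Xbp1. Ern1, the kinase and nuclease that splices Xbp1, was the least expressed of the 40 per length, at 1.79 CPM per kilobase in controls, and its log2 fold change was -0.23 (SE 0.12, edgeR, adjusted p = 0.28). Eif2ak3 (PERK) and Atf6 had log2 fold changes of -0.080 and -0.089 and passed neither fit.

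The ER chaperone arm showed no common shift of that kind. Of its 17 genes, 12 had a log2 fold change above 0, the median was 0.070, 1 gene rose (Calr) and 2 fell (Ero1l and Herpud1). Every ICF sample was above every control in 3 of the 17 and below in 3, against 15.6% and 15.7% of all genes. With the block 4 rose, which were Calr, Pdia3, Canx and Dnajc3, and the same 2 fell, against backgrounds of 14.6% and 15.3%. The median was 0.072 without ICF replicate 3, 0.02 without control replicate 1 and 0.11 without replicate 3 of both groups.

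Calr (ENSMUSG00000003814, chr8:84841850-84846934, reverse strand), a calcium-binding chaperone of newly made glycoproteins, was the most highly expressed of the 40 genes per length, at 457 CPM per kilobase in controls and 543 with ICF. It was at 1311, 1307 and 1329 CPM in controls and 1572, 1601 and 1515 CPM with ICF. The controls lay close together, well below all ICF samples, and the rise was 18.8% (log2 fold change 0.25, SE 0.024, edgeR, adjusted p = 0.027). The call was lost without control replicate 1, control replicate 2, ICF replicate 1 or ICF replicate 2 (edgeR, adjusted p up to 0.14) and kept without either replicate 3. Pdia3, a disulfide isomerase that works with Calr and Canx, was at 963, 971 and 1028 CPM in controls and 1174, 1126 and 1129 CPM with ICF. Its groups did not overlap, and the difference of 0.21 (SE 0.035) missed the threshold narrowly (edgeR, adjusted p = 0.055) and passed with the block (edgeR, adjusted p = 0.00081) and by DESeq2 (adjusted p = 0.0077).

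Canx, the membrane-bound relative of Calr, was at 849, 880.4 and 992 CPM in controls and 944, 932 and 1128 CPM with ICF. Its groups overlapped because replicate 3 was the highest sample of both (log2 fold change 0.14, SE 0.11, edgeR, adjusted p = 0.37, with the block 0.023). Dnajc3, a co-chaperone of the ER that also restrains eIF2α kinases, was at 101, 114 and 127 CPM in controls and 128, 124 and 126 CPM with ICF, where the highest control lay inside the ICF range (log2 fold change 0.14, SE 0.095, edgeR, adjusted p = 0.32, with the block 0.045).

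The general ER chaperones most often read as signs of ER stress did not pass either fit. Hspa5 (BiP, ENSMUSG00000026864, chr2:34771970-34777547, forward strand), the abundant chaperone that also holds the sensors inactive, was at 1178, 1233 and 1327 CPM in controls and 1344, 1333 and 1249 CPM with ICF. Replicate 3 was the highest control and the lowest ICF sample, and the groups overlapped. The log2 fold change of 0.071 (SE 0.060) did not pass (edgeR, adjusted p = 0.54), whereas without replicate 3 of both groups it was 0.15 and passed (edgeR, adjusted p = 0.014). Hsp90b1 (GRP94) was at 1347, 1494 and 1551 CPM in controls and 1565, 1507 and 1541 CPM with ICF. Its controls reached into the ICF range (log2 fold change 0.070, SE 0.063, edgeR, adjusted p = 0.55). The other 7 chaperones and folding enzymes, Pdia4, Pdia6, Dnajb9, Hyou1, Sdf2l1, Manf and Creld2, had log2 fold changes from -0.072 (Pdia6) to 0.12 (Pdia4), and 0 of the 7 passed edgeR's test with or without the block, DESeq2 or an unadjusted p under 0.05. Without replicate 3 of both groups, Pdia4 was at 0.17 on the log2 scale and passed (edgeR, adjusted p = 0.014).

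Ero1l fell far more than any other gene of the arm. Ero1l (ENSMUSG00000021831, chr14:45283087-45318771, reverse strand), also called Ero1a, is the oxidase that passes electrons from disulfide isomerases to oxygen. It was at 109, 122 and 118 CPM in controls and 56.0, 55.1 and 71.4 CPM with ICF. The lowest control was far above the highest ICF sample, and replicate 3 was the highest of the ICF samples. The level was 47.7% lower (log2 fold change -0.94, SE 0.13, edgeR, adjusted p = 0.0017), with the call kept in all 6 fits that left out a library.

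Of the genes of ER-associated degradation, Herpud1 fell and the others passed neither fit. Herpud1 (ENSMUSG00000031770, chr8:94386438-94395377, forward strand), a membrane protein of the complex that exports misfolded proteins, was at 51.6, 48.0 and 47.3 CPM in controls and 38.1, 42.0 and 37.0 CPM with ICF. All ICF samples were below all controls, by 20.3% on average (log2 fold change -0.33, SE 0.067, edgeR, adjusted p = 0.035). The call was lost without control replicate 1, control replicate 2, ICF replicate 1 or ICF replicate 3 (edgeR, adjusted p up to 0.16). Edem1, which marks misfolded glycoproteins for export, had a log2 fold change of -0.11 (edgeR, adjusted p = 0.25), and Sel1l, the adaptor of the export ligase, one of 0.11 (edgeR, adjusted p = 0.3). Every ICF sample was below every control for Edem1 and above every control for Sel1l. Without replicate 3 of both groups, Sel1l was at 0.15 on the log2 scale and passed (edgeR, adjusted p = 0.031).

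Promoters of chaperone genes often hold the ER stress response element, written CCAAT, then any 9 bases, then CCACG. On both strands it occurred in 0.119% of the 32851 windows and in those of 7 of the 12 chaperone and folding genes that had one, and in no window of the other members. Sites are printed for Calr, which rose, for Canx and Dnajc3, which passed with the block, and for Hspa5, which did not, along the gene's strand and with the element in capitals. They lie in Calr at chr8:84847055-84847113 (reverse strand, with the element on the opposite strand), Canx at chr11:50325780-50325838 (reverse strand), Dnajc3 at chr14:118937807-118937865 (forward strand) and Hspa5 at chr2:34772020-34772048 (forward strand, inside the first exon of a GENCODE transcript but before the RefSeq start). The shorter form, ATTGG, any base and CCACG, in 0.0365% of windows, was found among the 40 genes only in Herpud1, at chr8:94386357-94386407 (forward strand), whose window also holds the Atf4 core at chr8:94386297-94386344 as its reverse complement.
Calr: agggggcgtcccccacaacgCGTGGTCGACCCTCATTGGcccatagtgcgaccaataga
Canx: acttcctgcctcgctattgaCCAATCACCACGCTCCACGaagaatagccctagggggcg
Dnajc3: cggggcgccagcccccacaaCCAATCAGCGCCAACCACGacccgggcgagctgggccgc
Hspa5: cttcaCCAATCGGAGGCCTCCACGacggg
Herpud1, short element: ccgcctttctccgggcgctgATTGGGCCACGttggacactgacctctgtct
Herpud1, Atf4 core: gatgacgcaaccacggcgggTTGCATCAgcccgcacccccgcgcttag
The other genes with the long element were Hsp90b1, which holds it at 2 places, Pdia6 and Creld2. The 7 genes had log2 fold changes from -0.072 to 0.25, with 1 called higher by edgeR and 3 with the block. Of all genes, 3.47% and 14.6% were called higher in these fits. The element TGACGTG, found in 2.01% of windows, occurred among the members only in Hspa5.

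The contrast of the arms was also read sample by sample, as the mean log2 CPM of each arm's genes relative to the control mean. The amino acid arm stood at 0.048, 0.014 and -0.062 in the controls and at -0.20, -0.16 and -0.35 with ICF. Every ICF sample was thus below every control, with ICF replicate 3 the lowest. The ER chaperone arm stood at -0.035, 0.001 and 0.033 in the controls and at -0.011, -0.006 and -0.032 with ICF, entirely within the control range. That mean takes in Ero1l, whose log2 fold change was -0.94, while 12 of the 17 genes were above 0 (median 0.070). The level by sample was not computed without Ero1l, so the flat mean does not show that the other genes were unchanged. The ER arm minus the amino acid arm was -0.083, -0.013 and 0.095 in the controls and 0.19, 0.15 and 0.32 with ICF. These differences are given without a test, since the genes of an arm are not replicates and the arms were chosen with results of these data known.

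**Figure D3:**
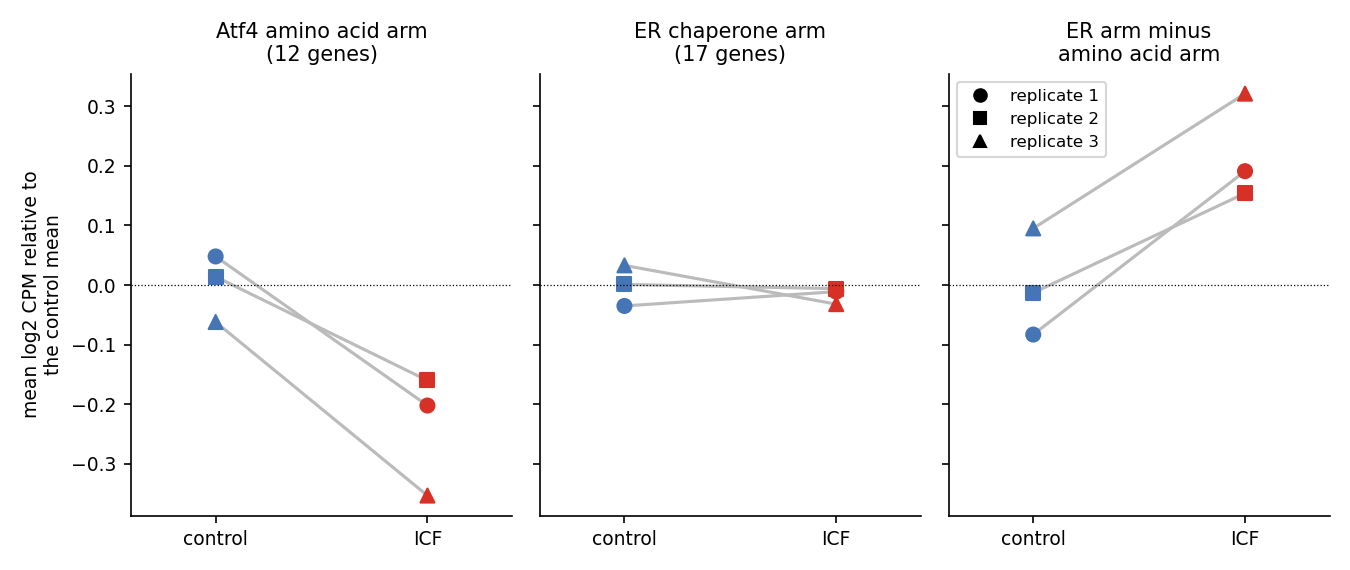
Mean log2 CPM relative to the control mean (y axis) of the 12 genes of the Atf4 amino acid arm (left) and of the 17 genes of the ER chaperone arm (middle), and the difference of the arms (right), with a point per sample and grey lines joining samples of the same number. The amino acid arm lies at -0.16 to -0.35 in the ICF samples, below all controls, while the ER arm stays between -0.035 and 0.033 in all 6 samples. The ER arm mean includes Ero1l, whose log2 fold change was -0.94.

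**Figure D4:**
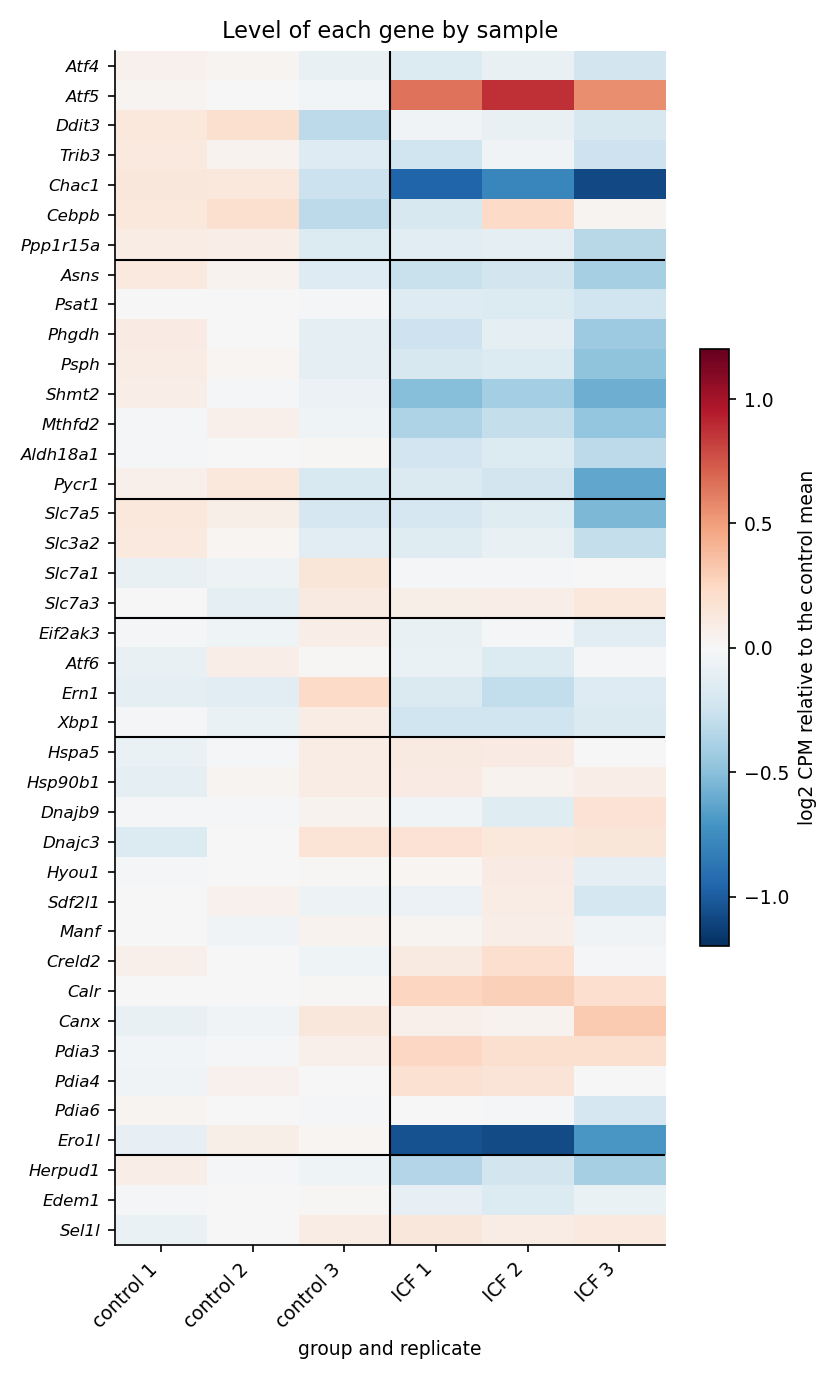
Log2 CPM of each of the 40 genes (rows, by role) in each of the 6 samples (columns) relative to its control mean, on a colour scale from -1.2 to 1.2. The rows of the amino acid enzymes have values below 0 in all ICF columns, Atf5 is the row with the highest values under ICF, and Chac1 and Ero1l are those with the lowest.

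Other genes of these pathways, taken from lists that share no gene with the 40, were read alongside. Of 34 further genes of the integrated stress response, 1 rose and 7 fell (edgeR), the median log2 fold change being -0.17, and with the block 2 rose and 18 fell. The shares over all genes were 3.47% higher and 4.38% lower with edgeR, and 14.6% and 15.3% with the block. Without ICF replicate 3 the median was -0.12. Of 33 further genes of ER folding and degradation, none rose (edgeR, with 4 higher at an unadjusted p under 0.05 and 1 by DESeq2) and 1, Sil1, fell, the median being -0.052. With the block 5 of the 33 rose and 9 fell, against the same shares of all genes, and the median was -0.029 without control replicate 1. The genes of the integrated stress response included 12 aminoacyl-tRNA synthetases, which charge tRNAs and were grouped after their values were seen. All 12 had log2 fold changes below 0, from -0.25 to -0.072, where 49.6% of all genes were below 0. Lars was called lower by edgeR and 8 of the 12 with the block, against 4.38% and 15.3% of all genes.

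Of the 9 genes of these lists past the threshold, Stc2 and Vldlr had the largest log2 fold changes. Stc2, a secreted glycoprotein induced by stress, was at 57.1, 60.0 and 56.4 CPM in controls and 18.7, 20.1 and 29.1 CPM with ICF (log2 fold change -1.36, SE 0.20, edgeR, adjusted p = 0.0017). Vldlr, a lipoprotein receptor, was at 28.3, 30.3 and 27.4 CPM in controls and 12.2, 12.2 and 12.8 CPM with ICF (log2 fold change -1.21, SE 0.048, edgeR, adjusted p = 0.00031). Both were lower in every ICF sample than in every control, by more than the spread of either group. Ddit4, an inhibitor of mTORC1 signalling, was at 164, 162 and 138 CPM in controls and 64.3, 74.7 and 102 CPM with ICF, with replicate 3 the nearest pair (log2 fold change -0.94, SE 0.21, edgeR, adjusted p = 0.0097, and 0.055 without control replicate 2). Sesn2, another inhibitor of mTORC1, went the other way, from 147, 156 and 154 CPM in controls to 209.8, 232 and 227 CPM with ICF (log2 fold change 0.55, SE 0.051, edgeR, adjusted p = 0.0018). It was the only gene of these lists that edgeR called higher.

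The remaining 5 genes past the threshold all fell, and other genes of the lists with related roles did not pass, such as the amino acid carriers Slc38a2 and Slc7a11 with log2 fold changes of 0.028 and -0.037 (edgeR, adjusted p = 0.89 and 0.95). Slc38a2 and Slc7a11 are named here after their values were seen. Slc7a11 was low, at 1.37, 1.34 and 2.75 CPM in controls and 1.76, 1.76 and 1.8 CPM with ICF (SE 0.27), so its value is uncertain. Slc1a4, a carrier of serine and other neutral amino acids, was at 72.1, 76.4 and 70.7 CPM in controls and 43.9, 45.5 and 39.8 CPM with ICF (log2 fold change -0.76, SE 0.066, edgeR, adjusted p = 0.00083). Mthfd1l, a mitochondrial one-carbon enzyme, was at 167, 169 and 154 CPM in controls and 122, 123 and 115 CPM with ICF (log2 fold change -0.44, SE 0.052, edgeR, adjusted p = 0.005). In neither gene did the groups overlap. Gpt2, a mitochondrial transaminase that makes alanine, was at 117, 117 and 109.7 CPM in controls and 88.8, 90.5 and 89.2 CPM with ICF (log2 fold change -0.36, SE 0.033, edgeR, adjusted p = 0.0084), and Lars, the leucyl-tRNA synthetase, fell by 0.23 on the log2 scale (SE 0.030, edgeR, adjusted p = 0.041). The call of Lars was kept in 1 of the 6 fits with a library left out, that without control replicate 3 (edgeR, adjusted p up to 0.19). Gpt2 lost its call without control replicate 1, control replicate 2 or ICF replicate 1 (edgeR, adjusted p up to 0.066). Sil1, a nucleotide exchange factor of Hspa5, was at 29.1, 26.8 and 20.9 CPM in controls and 16.6, 15.7 and 14.6 CPM with ICF, also without overlap (log2 fold change -0.71, SE 0.15, edgeR, adjusted p = 0.013). Its call was lost without control replicate 1 or control replicate 2 (edgeR, adjusted p up to 0.077).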

How the data were processed

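RNA sequencing measured gene expression in 3 ICF and 3 control samples. Per the study's methods and the submitters' processing notes, strand-specific libraries were sequenced from a single end, checked with FastQC, filtered with Trimmomatic, mapped with HISAT2 and counted with HTSeq (bcl2fastq 2.19; other versions are not given in the sources used here). The authors deposited raw read counts per gene and sample. HTSeq drops reads that map to several places, which lowers the counts of genes with near-identical copies, and whether its counting used strand is not stated. Rows that name no gene held 38.1% to 40.3% of each file's reads and stayed out of library sizes. The notes list both a human and a mouse build, and since the identifiers are mouse ones (50462 of 50686 in GENCODE M21), coordinates are those of GRCm38.

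Counts were tested with edgeR 4.0.16 in R 4.3.3 (TMM, filterByExpr by group, glmQLFit, glmQLFTest). On simulated counts the procedure was tested with known fold changes. Alternatives were DESeq2 1.42.0, RLE factors, a looser filter (1 count in any sample) and a stricter one (10 in every sample), the counts of ICF replicate 3 divided by 4, the replicate block, and libraries left out. Pairing rests on the donor numbers in the titles. Deviations from group means correlated at 0.23, 0.26 and 0.50 in same-numbered pairs and at -0.45 to 0.38 in other pairs. Arm means used log2(CPM + 0.5).

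The members and lists were chosen with earlier results of these data known. Per-sample values are given for members past the threshold with or without the block and for 12 genes whatever their result, and for at most 10 other pathway genes past the threshold. Promoter windows are from RefSeq; the bases after the start occur in a GENCODE transcript for 35 of 38 windows of 35 members. Protein sequences were not used here.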

Additional observations from a re-analysis of the deposited data

How the results depend on the processing

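No median log2 fold change of the members, their groups or the other pathway lists changed sign under any alternative run. The 8 calls were all kept with DESeq2, RLE factors, the stricter filter, ICF replicate 3 divided by 4 and the replicate block, and the looser filter lost Aldh18a1. DESeq2 called 943 genes higher and 1109 lower in all, with 5 of the amino acid arm lower and 2 of the ER arm higher. It also called 1 gene of the sensor group (Xbp1) and 11 other genes of the integrated stress response lower. Of the other ER genes it called 1 higher and 2 lower. The looser filter called 1 other ER gene higher. With the replicate block, 2445 genes were higher and 2561 lower in all, and among the members 5 were higher and 17 lower. The replicate block called 10 of the amino acid arm lower, 4 of the ER arm higher, and 4 regulators and 1 gene of the sensor group (Xbp1) lower. It also called 2 other genes of the integrated stress response higher and 18 lower, and 5 other ER genes higher and 9 lower. The replicate block with ICF replicate 3 divided by 4 gave 2681 and 2778 genes in all and the same numbers in each list. With libraries left out, including replicate 3 of both groups, calls ranged from 85 to 2466 higher and 215 to 2627 lower over all genes (580 and 733 with all libraries), and the lowest counts came without control replicate 2. Over the members they ranged from 1 to 7 higher and 3 to 18 lower, with 1 to 10 lower in the amino acid arm. In the ER arm 0 to 6 were higher and 1 to 2 lower, and 1 to 5 regulators and 0 to 1 genes of the sensor group were lower. In the other lists 4 to 17 genes of the integrated stress response were lower, and 0 to 5 other ER genes were higher and 0 to 9 lower. The highest counts came without replicate 3 of both groups. The median log2 fold change ranged from 0.02 to 0.11 in the ER arm, from -0.19 to -0.12 in the other integrated stress response genes and from -0.06 to -0.029 in the other ER genes. The cause of these shifts was not tested. With 3 samples a group, differences as small as those of most chaperones could not be told apart from no difference.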
